A study of Mus musculus with 9 samples.

Results

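The Ets1 sites of mature adipocytes from mice kept in the cold were compared with those from mice kept at room temperature. All peaks of both Ets1 libraries were taken, 14858 in the cold stress list (CS) and 4056 in the room temperature list (RT), which makes 18914 of the 454996 peaks in the 9 lists of the series. A peak was counted as shared when at least 1 bp of it overlapped a peak of the other list, and peaks were ranked only within their own list, by the −log10 q-value that the peak caller gave them.

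Both groups were wild type C57 male mice of 8 to 10 weeks, either exposed to a week of cold or left at room temperature. The floating adipocyte layer of collagenase-digested inguinal fat was collected, and Ets1 was mapped in its nuclei by CUT&Tag, in which an antibody tethers a transposase that cuts and tags the DNA beside the bound protein. Each group was 1 library and how many mice it held was not given in the sources used here, so no test between the groups was possible and no p-value is given. Intervals are 95% Wilson intervals that cover counting error only. The other 7 lists were used as landmarks: open chromatin (ATAC) and the active mark H3K27ac in adipocytes of mice that lack Ets1 in Adipoq-Cre expressing cells (EAKO) and of their Flox controls, H3K27ac in mice with an Ets1 knock-in driven by the same Cre (EA+/+) and in their controls (EC+/+), and Ets1 in beige adipocytes, which were differentiated for 6 days in culture from inguinal stromal cells of wild type C57 males of 3 to 4 weeks.

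Ets1 belongs to the ETS family of transcription factors, which share a winged helix-turn-helix domain and read a short element built around GGAA. Most ETS proteins favour CCGGAAGT, and such elements are common in the promoters of genes that every cell uses, where related factors such as Gabpa can occupy them. Inguinal fat is the depot in which cold brings out beige adipocytes, cells rich in mitochondria that burn fuel for heat through Ucp1.

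The sequences below show what lay under the summits that the comparison turned on, on the plus strand of mm10, read from the RefSeq assembly of that build. The first 4 are CS-only promoter summits, the highest in the CS list that carried the ETS letters outside annotated untranslated sequence. Capitals mark CCGGAAGT, or ACTTCCGG where the element runs on the minus strand.
Cdk13, chr13:17805361-17805481: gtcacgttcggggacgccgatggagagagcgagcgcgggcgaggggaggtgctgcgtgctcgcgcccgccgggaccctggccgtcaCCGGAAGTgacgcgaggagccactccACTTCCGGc
Dnaaf5 and Prkar1b, chr5:139150085-139150205: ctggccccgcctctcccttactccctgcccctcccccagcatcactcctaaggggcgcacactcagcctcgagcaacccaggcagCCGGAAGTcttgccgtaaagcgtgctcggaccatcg
Tomm70a, chr16:57121578-57121698: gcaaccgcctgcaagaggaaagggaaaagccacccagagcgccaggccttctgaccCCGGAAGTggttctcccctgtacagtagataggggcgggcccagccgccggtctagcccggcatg
Myl6b, chr10:128498733-128498853: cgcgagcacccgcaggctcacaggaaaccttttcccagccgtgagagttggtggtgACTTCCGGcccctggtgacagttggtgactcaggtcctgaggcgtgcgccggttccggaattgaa
Promoters in both lists less often carried that element at the summit, and the next 2 are the leading ones that did under the same limits.
Mgat1, chr11:49244050-49244170: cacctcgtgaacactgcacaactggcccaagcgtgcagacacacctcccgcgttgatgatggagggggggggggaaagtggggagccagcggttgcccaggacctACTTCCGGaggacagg
Ppp1ca, chr19:4191865-4191985: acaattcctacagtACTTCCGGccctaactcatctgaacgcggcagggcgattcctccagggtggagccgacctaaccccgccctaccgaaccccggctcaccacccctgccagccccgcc
More often they carried the GC box of the SP and KLF factors, shown for 3 named genes with GGGGCGGGG or CCCCGCCCC in capitals.
Nampt, chr12:32820193-32820313: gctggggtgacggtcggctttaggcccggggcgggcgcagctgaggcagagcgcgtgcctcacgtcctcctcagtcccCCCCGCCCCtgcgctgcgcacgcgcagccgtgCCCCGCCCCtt
Ulk1, chr5:110810161-110810281: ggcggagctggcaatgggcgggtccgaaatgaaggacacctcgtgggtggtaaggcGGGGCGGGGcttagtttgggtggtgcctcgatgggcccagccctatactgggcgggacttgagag
Wipi1, chr11:109611471-109611591: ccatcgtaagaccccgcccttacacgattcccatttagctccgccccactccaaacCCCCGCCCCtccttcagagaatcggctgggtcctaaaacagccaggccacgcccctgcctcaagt
Of RT-only summits, 21.7% had a CA repeat within 100 bp, shown for the Npnt promoter, with runs of at least 6 CA units in capitals.
Npnt, chr3:132949560-132949680: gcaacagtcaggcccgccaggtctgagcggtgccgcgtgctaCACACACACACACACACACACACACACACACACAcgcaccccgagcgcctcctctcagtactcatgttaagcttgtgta

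Of the CS peaks, 88.0% (87.5 to 88.5) overlapped no RT peak, and of the RT peaks 55.9% (54.3 to 57.4) overlapped no CS peak. The 1779 CS peaks and 1790 RT peaks that met formed 1807 pairs. Within a pair the summits lay a median of 70 bp apart, and 62.2% of the pairs had summits within 100 bp of each other. Shared peaks had a median percentile of 84.2 within the CS list and unshared ones 46.0, and within the RT list the medians were 69.4 and 36.9. Few unshared peaks were near misses: 1.51% of the CS-only peaks and 5.47% of the RT-only peaks had a peak of the other list within 1 kb. The study's sequencing summary lists read totals of nearly the same size for both libraries. With 1 library each, the length of a list still cannot be told apart from differences between the mice or the library preparations.

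In both lists the strongest peaks were the ones most often shared. Of the strongest 10% of the RT list, 92.1% (89.1 to 94.4) met a CS peak, and of its weakest 10%, 17.5%. In the CS list the share was 48.1% (45.6 to 50.7) in the strongest 10%, 17.8% in the next and 3.03% in the last. Promoters filled the top of the CS list and not that of the RT list. The strongest 10% of CS peaks lay at promoters in 75.6% of cases and met a Flox ATAC peak in 85.9%, while the strongest 10% of RT peaks did so in 21.7% and 44.3%. A promoter here was 1 kb on each side of a transcription start of a protein-coding gene.

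**Figure D1:**
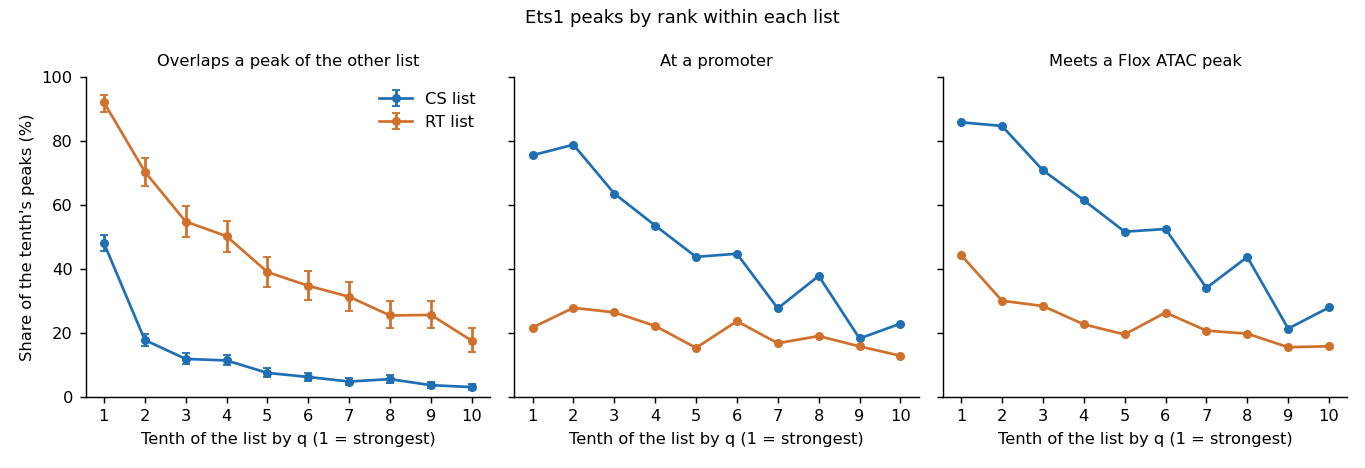
Share of peaks (%) in each 10% of a list that overlaps the other Ets1 list (bars are 95% Wilson intervals), lies at a promoter or meets a Flox ATAC peak, against rank within the list. The RT list starts at 92.1% shared but 21.7% at promoters; the CS list starts at 48.1% shared and 75.6% at promoters.

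When each list was cut to its 4056 best peaks, 2951 CS peaks and 2930 RT peaks had no partner, the RT list entering whole. Of those CS peaks, 82.8% (81.4 to 84.1) lay at promoters and 89.2% met a Flox ATAC peak. Of the 2266 RT peaks that met no CS peak of any rank, 5.83% (4.93 to 6.87) lay at promoters and 6.49% met a Flox ATAC peak.

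The 4 classes of peaks lay in different parts of the genome. CS-only peaks were at promoters in 47.8% of cases, in introns in 22.8% and between genes in 24.2%. RT-only peaks were between genes in 49.6% and in introns in 39.5%, and 50.2% of them had a summit over 50 kb from any protein-coding start, against 19.2% of CS-only peaks. Only 1.28% of RT-only summits fell within 100 bp of a start, against 23.8% of CS-only summits. Shared peaks were in between, with 38.3% at promoters in either list.

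The other lists of the series separated the classes further. A peak of Ets1 in beige adipocytes was met by 43.1% of CS-only peaks, by 50.8% of shared CS peaks and by 3.75% of RT-only peaks. None of the 7 other lists held a peak at 25.4% of CS-only sites, 10.3% of shared RT sites and 58.5% of RT-only sites. Away from promoters, shared CS peaks met the H3K27ac list of EA+/+ mice in 65.6% of cases but Flox ATAC in 17.3%, and 57.2% of them lay on sequence that is repeat-masked over more than 50% of the 201-bp summit window. Of the unshared peaks away from promoters, 22.9% in CS and 40.6% in RT lay on such sequence. Without mostly masked peaks, 91.3% of CS peaks and 55.6% of RT peaks were unshared. Where only peaks in Flox ATAC were kept in both lists, 89.5% of CS peaks and 14.9% (12.8 to 17.3) of RT peaks were unshared. RT peaks in open chromatin mostly met a CS peak, while RT peaks outside it mostly did not.

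**Figure D2:**
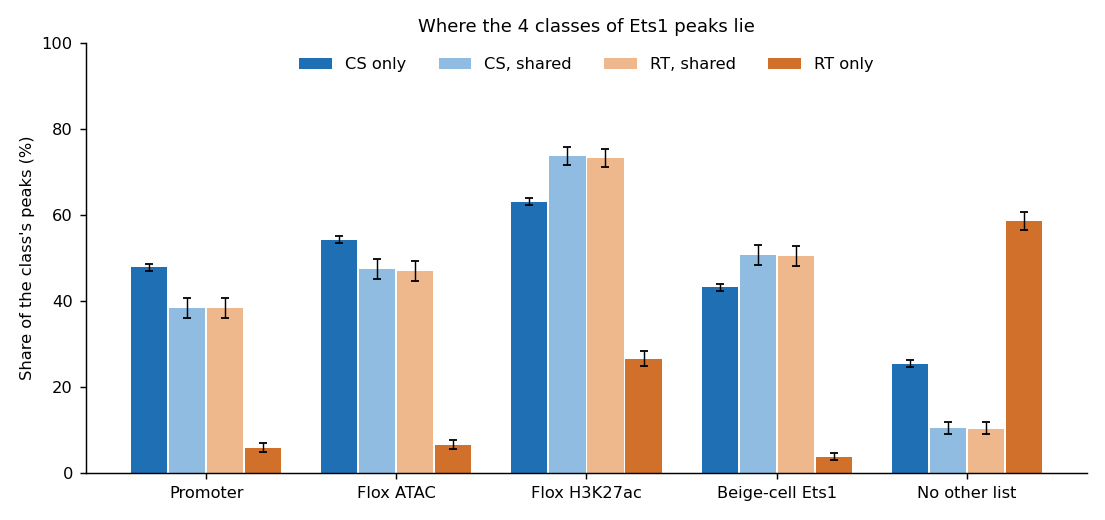
Share (%) of CS-only, shared and RT-only peaks that lie at promoters, meet a peak of 3 other lists, or meet none of the 7 other lists; bars are 95% Wilson intervals. RT-only peaks stand at 5.83% at promoters and 3.75% in the beige-cell Ets1 list, with 58.5% in no other list.

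The highest CS peaks away from promoters that RT lacked were led by one with a −log10 q of 96.0, 15712 bp from Gtpbp4, which encodes a GTP-binding protein of ribosome assembly. The next ones lay nearest to Diaph3 at 39.2, Scaf8 at 26.4, Trpm1 at 24.7 and Polr3k at 19.7. Pdia4, which encodes a protein disulfide isomerase of the endoplasmic reticulum, was the nearest gene of 2 further ones, with 19.1 and 17.3, and Prss12 of the last, with 17.4. The Diaph3, Trpm1 and Polr3k peaks did not meet Flox ATAC, and those by Gtpbp4, Scaf8, Prss12 and Pdia4 did. Over all CS-only peaks away from promoters, 19.6% met it. Of the 8 highest RT-only peaks away from promoters, 6 are given here, at 123 nearest Kcnh8, 96.8 nearest Scaf8, 14.3 inside Trpm8, 13.1 nearest Map3k7, 12.9 nearest Eno1b and 12.2 nearest Gm5458. None of the 8 met Flox ATAC, and each was masked over at least 60.2% of its window. Over all RT-only peaks away from promoters, 3.75% met Flox ATAC, so none among 8 is near that share. For the CS peaks named above, the masked share was 82.6% by Trpm1, 60.2% and 48.8% by Pdia4, and 54.2% by Diaph3. It was 52.7% by Scaf8, 42.3% by Gtpbp4, 39.3% by Polr3k and 0% by Prss12. These genes are named for position only.

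The highest peaks of both lists away from promoters were near Tcte2, in Gm525, near Rpusd4, in Atrnl1, near Tcp10c, near Tmem196 and near Rab10. For the Tcte2 peak the −log10 q was 2917 in CS and 2999 in RT, with both windows masked throughout. Very high values occurred in both lists at such sites, and 48 of the 49 CS peaks and 41 of the 42 RT peaks with a −log10 q of 100 or more were shared. A shared peak of 3238 bp in CS and 3227 bp in RT, the widest of each list, was nearest to Esp38 on chromosome 17, where the GENCODE annotation places noncoding RNA. It is named here with its width already known.

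At the level of genes, 7177 of 21938 protein-coding genes had a CS peak at a promoter, which is 32.7%, and 890 had an RT peak, which is 4.06%. Both lists marked 796 genes (3.63%), CS only 6381 (29.1%) and RT only 94 (0.428%). Of the 890 genes with an RT promoter peak, 796 also had one in CS. With the best peaks in equal number, 3491 genes (15.9%) had a CS peak and 890 (4.06%) an RT peak, 689 of them in common. Genes without a Flox ATAC peak at the promoter rarely had an Ets1 peak, 1.94% of them in CS and 0.395% in RT, while of those with one 47.4% had a CS peak and 5.80% an RT peak. The promoters marked in both lists were high in the CS list, with a median percentile of 93.1 against 68.4 for those marked in CS only. Of the genes marked in both, 96.6% had an Ets1 peak in beige adipocytes, as did 88.8% of the CS-only genes and 35.1% (26.2 to 45.2) of the RT-only genes.

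The strongest CS-only promoter peak was at Oasl1, an interferon-induced gene of antiviral defence, with a −log10 q of 105, but it fell on sequence that is masked over 89.6% of the window and it was absent from the beige-cell list. Camsap1, which binds the minus ends of microtubules, followed with 32.0. Cbx3, a heterochromatin protein, and Hnrnpa2b1, an RNA-binding splicing factor, share a divergent promoter and a single peak of 31.5. The other leading genes were 0610009B22Rik at 28.7, Iffo2 at 27.6, Cdk13, a kinase of the transcribing polymerase, at 26.9, and Ogfod2 at 26.8. Of the 8 peaks, 7 overlapped a Flox ATAC peak and the same 7 a beige-cell Ets1 peak, all but that of Oasl1. Over all unshared CS promoter peaks the shares were 92.0% and 77.6%. By the promoter in place of the peak, 8 of the 8 genes had a Flox ATAC peak, 8 a Flox H3K27ac peak and 7 a beige-cell Ets1 peak. These counts are near the shares over all 6381 CS-only genes, 98.0%, 97.6% and 88.8%. Each of these 8 genes had no promoter peak in RT.

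Among the 8 strongest RT-only promoter peaks, Ank1, which encodes an ankyrin of the membrane skeleton, led with a −log10 q of 21.3, on sequence masked over 75.1% of the window. Gm11168 followed with 16.8 on fully masked sequence. Npnt, which encodes the matrix ligand nephronectin, had 8.03 on the CA repeat printed above. Igf2, a growth factor gene, had 6.34, and its peak also overlapped a CS peak that stopped short of the promoter window. Plcb4 and Olfr1344 had 5.94, and Fmn2 and Gm9758 5.66. Of the 8 peaks themselves, 1 overlapped a Flox ATAC peak, that of Npnt, 4 a Flox H3K27ac peak and 1 a beige-cell Ets1 peak, that of Igf2. Over the 132 unshared RT promoter peaks the shares were 50.8%, 53.8% and 18.9%. By the promoter, 5 of the 8 genes had a Flox ATAC peak, 6 a Flox H3K27ac peak and 0 a beige-cell Ets1 peak. Over all 94 RT-only genes the shares were 78.7%, 80.9% and 35.1%.

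The 8 genes marked in both lists at the highest percentiles were all predicted genes: Gm10800, Gm10717 and Gm10718 on a common peak, Gm10722, Gm21738, Gm10801, Gm10720 and Gm17535. Their windows were masked over 91.5% to 100% of their length. Leaving these aside was a choice made after the values were seen. Genes were then kept only with a Flox ATAC peak at the promoter and a CS window that was not mostly masked. The leading ones marked in both lists were Sfi1, Ccdc9, Brat1, Tbl2, Gm29394 with Zhx1, Nampt, Wipi1, Ski, Usp32 and Izumo4 with Mob3a. Nampt, which makes the NAD precursor nicotinamide mononucleotide, had a −log10 q of 19.7 in CS and 15.9 in RT. Wipi1, which reads phosphatidylinositol 3-phosphate on the forming autophagosome, had 23.8 in CS and 14.7 in RT. Brat1, a gene of the DNA damage response, had 33.0 and 22.8. Ski, a repressor of TGFβ signalling, had 37.7 and 14.5. The values belong to separate lists and give only the order within each.

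Several genes held many peaks within the gene or 10 kb of it. Sfi1, a centrosome gene, held 35 CS and 34 RT peaks, and its neighbour Drg1 held 9 and 8. Gm20388, a predicted gene model on chromosome 8, held 70 CS and 16 RT peaks. Fgfr2, a fibroblast growth factor receptor gene, held 21 CS and 5 RT peaks, and Fam155a 11 and 1. C130026I21Rik held 14 and 13, Gm10717 11 and 10, and Gm11168 6 and 8.

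The 16 autophagy and mitochondrial genes that the study named for Ets1 all had a CS promoter peak, where 32.7% of all genes did. Only Ulk1 had an RT promoter peak, where 4.06% of all genes did. The study chose these genes with these libraries in hand, so the counts are not independent evidence of a direction. Their CS peaks lay at a median percentile of 81.2, and 13 of the 16 were among the best 4056. Over all 7177 genes with a CS promoter peak the median was 71.2, and for 3491 of them the peak was among the best. Ulk1, the kinase that starts autophagosome formation, had a −log10 q of 17.1 in CS and 6.05 in RT, at percentiles 97.2 and 83.1 of the respective lists. The CS and RT summits lay 1 bp apart, and the GC box printed above was within 100 bp of both.

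**Figure D3:**
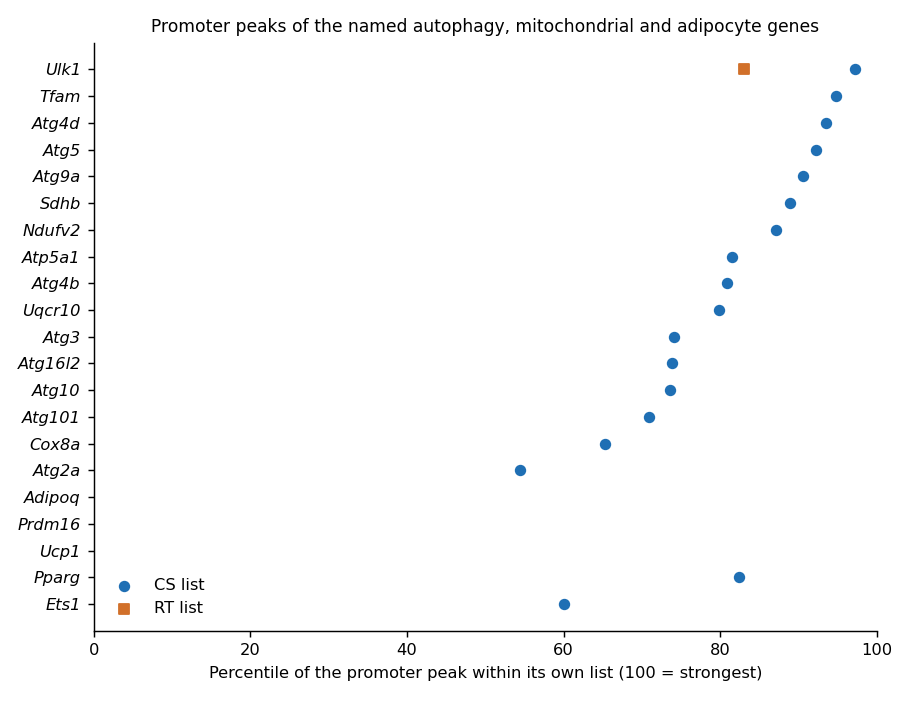
Percentile of each promoter peak within its own list for the 16 autophagy and mitochondrial genes and for 5 further genes; circles are CS, squares RT, and no symbol means no promoter peak. Ulk1 alone has an RT symbol, and CS symbols run from 54.4 for Atg2a to 97.2 for Ulk1.

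Among the other autophagy genes of that set, Atg4d, a protease that processes the Atg8 proteins, had 12.0, Atg5 10.8 and Atg9a, the membrane protein that seeds the autophagosome, 9.92. Atg4b had 6.79, Atg3 5.66, Atg16l2 5.59, Atg10 5.56, Atg101 5.35 and Atg2a 3.77. Of the mitochondrial genes, Tfam, which packages and transcribes mitochondrial DNA, was highest with 13.2, followed by Sdhb of complex II with 9.29 and Ndufv2 of complex I with 8.56. Atp5a1 had 6.96, Uqcr10 6.57 and Cox8a 4.61. Cox8a carried the ETS letters 2 times within 100 bp of its summit and Tfam 1 time, and Sdhb carried the shorter CCGGAAG. No match to either was found in this window at the other 13. All 16 also had an Ets1 promoter peak in beige adipocytes. So did 88.8% of all CS-only genes and 96.6% of those marked in both lists.

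The genes of beige and mature adipocytes that were looked up by name differed. Of the full adipocyte marker list, counted below, 6 of 15 had a CS promoter peak and 2 an RT one. Ucp1 and Adipoq had no peak of either list in the gene or within 10 kb, and neither had a Flox ATAC peak at a promoter. Pparg, the master regulator of fat cell identity, had a CS promoter peak of 7.18, and Ets1 itself one of 4.31, at percentiles 82.4 and 60.1. Prdm16, a regulator of beige fate, had no promoter peak but 7 CS and 4 RT peaks in or near its long gene body. Absence from a peak list shows only that no peak passed the caller's threshold in that 1 library.

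The 44 gene lists were then counted against the background of 32.7% of genes in CS and 4.06% in RT. Of these, 10 hold cell type markers, and the other 34 include fat cell pathways and general cell machinery. In CS, 32 lists had a larger share than all genes, and in RT 23 did. The lists with the largest CS shares were those of endoplasmic reticulum stress, with 24 of 26 members, the TCA cycle, with 23 of 26, insulin signalling, with 26 of 30, and chaperones, with 28 of 33. In RT the largest shares were in the TCA cycle, with 5 of 26, chaperones, with 6 of 33, and chromatin regulators, with 9 of 50. Of the members of the 44 lists, 2 had a peak in RT and not in CS. They were Pde4b, a cAMP phosphodiesterase, at 1.93, and the mitotic kinase gene Cdk1 at 3.84. Such genes are rare over all genes too, 94 of 21938 or 0.428%. RT members past the leading 3 of a list are named with their values already seen. Lists of widely expressed genes may also be read against the 47.4% of genes with a Flox ATAC promoter peak that had a CS peak.

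**Figure D4:**
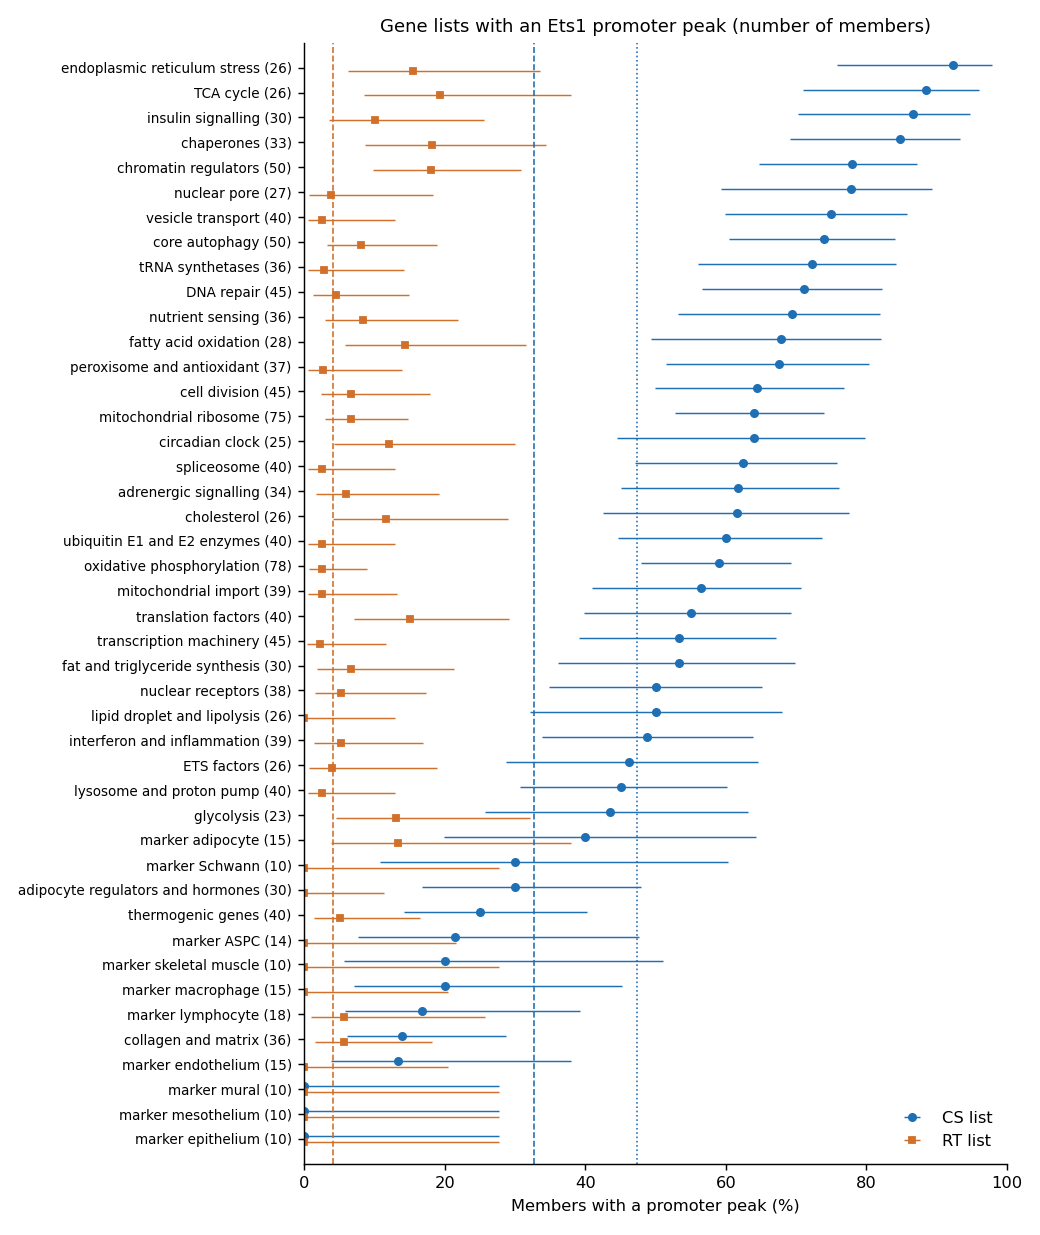
Share of each list's members (%, 95% Wilson intervals) with a promoter peak in CS (circles) and RT (squares); dashed lines are all genes (32.7% and 4.06%) and the dotted line is CS among genes with a Flox ATAC promoter peak (47.4%). CS shares run from 92.3% for endoplasmic reticulum stress to 0 for the mural, mesothelium and epithelium markers.

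Protein quality control was marked more fully than most lists. The ER stress genes with a CS peak only were led by Ppp1r15b, which restores translation after stress, at a −log10 q of 20.1, the lectin chaperone gene Canx at 14.8, Manf at 12.8 and the stress-induced factor gene Ddit3 at 12.0. In RT, Derl2 had 5.66, P4hb 5.31 and Pdia4 3.84, and Pdia3 was the other member. The chaperone genes in CS only were led by Bag1 at 20.7, Tcp1 at 11.9, the mitochondrial Hsp70 gene Hspa9 at 11.5 and Trap1 at 9.61. In RT, the constitutive Hsp70 gene Hspa8 had 5.66, and Hspd1 and Hspe1, which encode the mitochondrial chaperonin pair and share a promoter, 3.84. Dnajb1, Hsp90b1 and Hsf1 were the other members.

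Autophagy and its regulation had 37 of 50 core members in CS and 4 in RT. In RT, Wipi1 had 14.7, Tfeb, the transcription factor that drives lysosome genes, 8.53 and Ulk1 6.05, and Uvrag was the other member. CS-only members were led by Atg4d, Tmem41b at 10.9, Atg5 and Atg9a. Among nutrient sensing genes, 25 of 36 had a CS peak and 3 an RT peak. These were Stk11, the kinase upstream of AMPK, at 8.15 in RT, Akt1s1 at 5.01 and Mlst8 at 2.34. The CS-only members were led by Lamtor2 at 18.8 and Strada at 14.6, then Sesn3 at 14.0 and Prkab2 at 12.3. The lysosome and proton pump list had 18 of 40 in CS, among them Npc2 at 11.8, Galns at 9.18 and Atp6v1e1 at 7.32, and 1 in RT, Atp6v1d at 1.65. Vesicle transport had 30 of 40 in CS, led by Sec23a at 17.4, Copg1 at 15.7, Sec24c at 14.3 and Vps26a at 12.7, with Rab1a at 5.15 the single RT member. Of the ubiquitin E1 and E2 genes, 24 of 40 had a CS peak, led by Birc6 at 25.3, Uba6 at 21.4, Cdc34 at 12.7 and Ube2q1 at 11.2, and Ube2d3 alone had an RT peak, at 2.97.

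Mitochondrial lists had more members marked in CS than in RT, as did all genes, with 7177 of 21938 in CS and 890 in RT. Of the oxidative phosphorylation genes, 46 of 78 had a CS peak, led by Uqcrq at 18.9, Atp5j at 16.4, Ndufs8 at 13.1 and Cox4i1 at 12.6. The 2 with an RT peak were Atp5e at 4.73 and Ndufb5 at 2.29. The mitochondrial ribosome had 48 of 75 in CS, led by Mrps18b at 15.5, Mrpl40 at 12.6, Mrps14 at 11.2 and Mrpl34 at 9.17, and 5 in RT, of which Mrps28 had 6.05, Mrps26 3.84 and Mrpl17 3.03. Mrpl47 and Ndufb5 share 1 promoter peak and so count in both lists. Mitochondrial import had 22 of 39 in CS, led by Tomm70a at 22.8, whose ETS letters are printed above, and then Timm13 at 8.87, Tomm34 at 7.44 and Timm17b at 7.07. Tomm40, the channel of the outer membrane, was its one RT member, at 4.80. In the TCA cycle list the RT members were led by Pcx, which encodes pyruvate carboxylase, at 10.7, Idh2 at 4.32 and Mdh2 at 3.15, with Ogdh and Fh1. The CS-only members were led by the citrate synthase gene Cs at 14.2, Pdp1 at 12.2, Pdha1 at 9.36 and Pdk1 at 7.68.

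Fuel gene lists of the adipocyte had CS shares from 43.5% for glycolysis to 67.9% for fatty acid oxidation, beside 32.7% of all genes. The intervals of glycolysis, 25.6% to 63.2%, and of lipid droplet genes, 32.1% to 67.9%, take in that share. Fatty acid oxidation had 19 of 28 in CS and 4 in RT, of which Acsl1, which activates long-chain fatty acids, had 8.61, Acadm 3.99 and Acaa2 3.03. In CS only, Acads had 9.71, Cpt1a, the gate of mitochondrial fatty acid entry, 8.92, Etfdh 8.40 and Acaa1a 8.23. Glycolysis had 10 of 23 and 3, the RT members being Slc2a4, the insulin-regulated glucose transporter gene, at 5.66, Aldoa at 4.14 and Eno1 at 2.29. Its CS-only members were led by Hk1 at 13.0. Fat and triglyceride synthesis had 16 of 30 and 2, with Agpat1 at 8.14 and Acly at 5.45 in RT and Acaca, Agpat2, Fasn and Agpat3 leading in CS only. For Acaca, which makes malonyl-CoA, the value was 17.9. The lipid droplet and lipolysis list had 13 of 26 in CS, led by Rab18 at 17.6, Cav1 at 7.04, Fabp5 at 6.60 and Auh at 5.56. It had none in RT, with an interval of 0 to 12.9% that takes in the 4.06% of all genes. Cholesterol genes had 16 of 26 and 3, with Hmgcs1 at 3.03 in RT beside Lss and Idi1. Peroxisome and antioxidant genes had 25 of 37 and 1, Nfe2l2, the regulator of the antioxidant response, at 5.60 in RT.

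Hormone and signalling lists followed the same order. Insulin signalling had 3 RT members, Gsk3b at 8.83, Slc2a4 at 5.66 and Rab10 at 1.65, and its CS-only members were led by Grb2 at 13.1 and Gsk3a at 8.56. Adrenergic signalling, the input that cold uses, had 21 of 34 in CS, led by Prkar1b at 24.6, Atf2 at 11.3, Prkar1a at 9.70 and Creb1 at 9.28. Its RT members were Pde4b and Rapgef3 at 1.71. Nuclear receptors had 19 of 38 and 2, where Nr2c2 had 7.00 and Esrra, a driver of mitochondrial genes, 2.45 in RT. The clock list had 16 of 25 and 3, with Tef at 8.94, Arntl2 at 3.84 and Bhlhe40 at 2.37 in RT and Nr1d2 at 19.6 leading in CS only. Interferon and inflammation genes had 19 of 39 and 2, Ifngr1 at 11.05 and Relb at 7.08 in RT. Of the ETS factor genes themselves, 12 of 26 had a CS peak, led among the CS-only ones by Elk4 at 16.4 and Gabpa at 16.4, then Etv5 at 7.16 and Elf2 at 6.67, and Ets2 alone had an RT peak, at 2.15.

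Nuclear and translation genes made up another group. Chromatin regulators had 39 of 50 in CS and 9 in RT, of which Hdac2 had 9.90, Kmt2b 4.81 and Setd2 4.73. The CS-only members were led by Smarca4, the ATPase of the BAF complex, at 21.3, Hdac1 at 12.2 and Crebbp at 11.4. Translation factors had 22 of 40 and 6, with Eif1 at 8.34, Eif5 at 4.65 and Eif4a1 at 3.43 in RT. Nuclear pore genes had 21 of 27 and 1, Tpr at 1.65, and spliceosome genes 25 of 40 and 1, Snrnp70 at 1.65. The tRNA synthetase list had 26 of 36 and 1, Cars at 3.47. Transcription machinery had 24 of 45 and 1, Polr2h at 3.03. DNA repair had 32 of 45 and 2, with Msh3 at 6.26 the higher in RT. Cell division had 29 of 45 and 3, Cdk1, Anapc4 at 3.39 and Cdk4 at 3.29.

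In CS the lists of tissue-restricted genes lay below the background of 32.7%, apart from the adipocyte markers, whose interval takes it in. In RT they lay on either side of 4.06%. The thermogenic list had 10 of 40 in CS, with an interval of 14.2% to 40.2%, and 2 in RT, or 5.00%, Esrra and Letmd1 at 1.65, and its CS-only members were led by Pparg, Gk at 6.80, Pdk4 at 6.04 and Atp2a2 at 5.95. Adipocyte regulators and hormones had 9 of 30 in CS, or 30.0% (16.7 to 47.9), and 0 in RT, led by the glucocorticoid receptor gene Nr3c1 at 9.44. Both of these intervals take in the CS background. Among members with a Flox ATAC promoter peak, 29.4% of the thermogenic genes and 34.6% of the adipocyte regulators and hormones had a CS peak. The share was 54.5% for such adipocyte markers and 47.4% for all such genes. Collagen and matrix genes had 5 of 36 in CS, or 13.9% (6.08 to 28.7), and 2 in RT, or 5.56%, Lamc1 at 5.79 and Nid2 at 5.66 in RT. As a check of the label, 6 of 15 adipocyte markers had a CS peak, with an interval of 19.8% to 64.3%, and 2 an RT peak, or 13.3%, Acsl1 and Slc2a4, while Adipoq, Plin1 and Fabp4 had none. Markers of other cells had 3 of 14 for adipose progenitors, 3 of 15 for macrophages, 3 of 18 for lymphocytes, 2 of 15 for endothelium, 3 of 10 for Schwann cells and 2 of 10 for skeletal muscle in CS. In RT, Gata3 at 3.07 was the one such marker. A promoter peak is no measure of expression, and what share of the nuclei came from other cells was not tested.

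The 8 letters CCGGAAGT, searched on both strands, lay within 100 bp of the summit in 2.23% (2.01 to 2.48) of CS peaks and in 0.444% (0.281 to 0.700) of RT peaks. In windows moved by 1 kb to either side the shares were 0.232% and 0.210%. The difference between lists was partly one of place, because 4.40% of CS promoter peaks and 1.71% (1.02 to 2.86) of RT promoter peaks had the letters, as did 3.54% of windows of the same length at all annotated starts. Among CS promoter peaks, those unshared had them in 4.62% and those shared in 2.35%, and of the 132 RT-only promoter peaks none did (upper bound 2.83%). CS peaks in Flox ATAC had the letters in 4.02% and CS peaks outside it in 0.188%. The same letters in reversed order, TGAAGGCC, were in 1.00% of CS and 0.814% of RT windows. They match CCGGAAGT in base content but lack its CG pair. Because CG pairs are not equally common at promoters and elsewhere, this comparison cannot settle the part of composition.

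Around CS promoter summits the ETS letters were centred. A match began in a mean of 1.20% of windows per 50-bp bin within 100 bp of the summit and in 0.301% per bin beyond 300 bp. At RT promoter summits the corresponding means were 0.428% and 0.260%, over 817 windows. Around all annotated starts, taken without regard to peaks, they were 0.957% and 0.145%, so this centring is not particular to Ets1 summits. GGGGCGGGG, the letters of SP and KLF factors, were more common and also centred in both lists, at 4.56% against 1.43% in CS and 5.57% against 2.23% in RT. All starts gave 2.45% against 0.783% for these letters. At the summit of shared CS promoter peaks 23.8% of windows held them, and of unshared ones 14.8%, beside 8.68% of all starts.

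CA repeats had the opposite place. A run of at least 6 CA units lay within 100 bp of 8.26% of CS summits and 18.8% of RT summits, and in windows moved by 1 kb the shares were 3.13% and 3.48%. Away from promoters the shares were 14.7% in CS and 22.9% in RT, and at CS promoters 0.923%. Of RT-only peaks 21.7% held one. Whether these repeats bear on how the reads were placed was not tested.

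**Figure D5:**
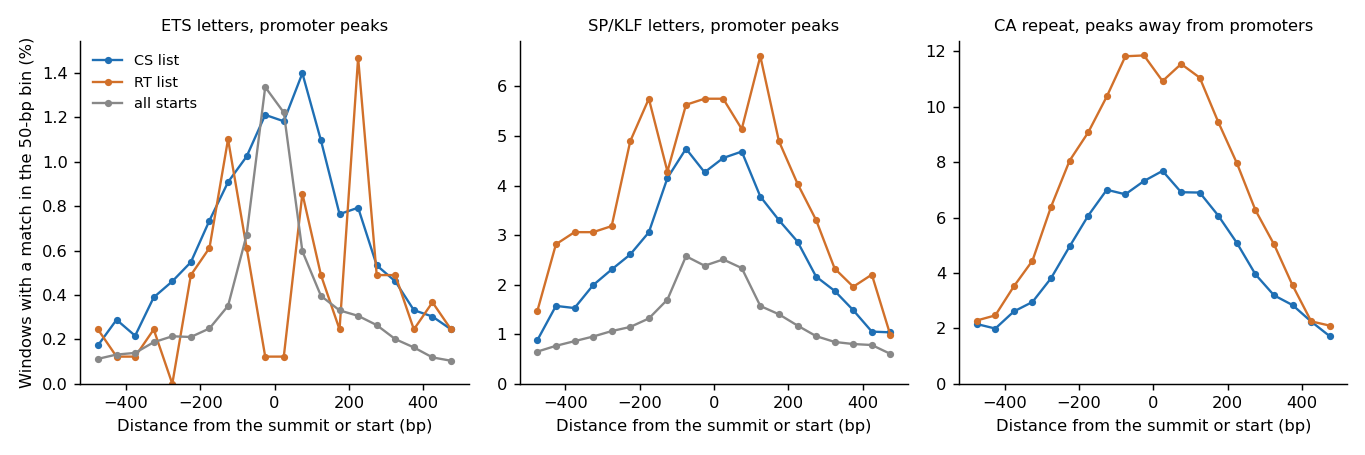
Share of windows (%) with a match that begins in each 50-bp bin, against distance from the summit or the annotated start (bp), for ETS letters and SP/KLF letters at promoter peaks and CA repeats at peaks away from promoters; grey is all starts. CS lines peak near the centre in all 3 panels; the RT line for ETS letters rests on few matches.

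Starts were also grouped by letters that the peaks did not choose. Of the 3307 annotated starts with CCGGAAGT within 100 bp, 54.2% (52.5 to 55.9) had a CS peak within 1 kb, against 25.8% of starts without it. For RT peaks the shares were 3.96% (3.35 to 4.68) and 3.25%. Among starts with a Flox ATAC peak and a GC content of at least 60%, the CS shares were 61.9% and 54.7% and the RT shares 4.68% and 6.98%. Other promoter letters were also met more often in CS. In that open and GC-rich set, AAGATGGCG of YY1 gave 66.7% with and 54.7% without, GCGCATGC of NRF1 64.4% and 54.8%, and GGGGCGGGG 59.0% and 54.3%. In RT, GGGGCGGGG gave 8.72% with and 6.37% without. Over all starts, TGACTCA of AP-1 went the other way, with 15.3% of starts that hold it and 27.1% of the rest in CS. In the open and GC-rich set this gap was smaller, at 49.3% (45.1 to 53.6) with and 55.3% without. Starts of 1 gene share a promoter and are not independent, so these intervals are too narrow.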

How the data were processed

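Ets1 CUT&Tag was measured in 1 CS and 1 RT library. The authors aligned reads to mm10 and called peaks per library. The −log10 q-values in column 9 of the deposited lists were computed by the peak caller, MACS2, and ranked peaks within a list only. The submitters' processing notes name BWA, SAMtools, MACS2 and deepTools. The study's methods state a q-value cutoff with MACS2 at default settings, and the lowest −log10 q was 1.30 in both lists. IgG antibodies are named in the protocol, but which control entered the calling is not given in the sources used here. The study's sequencing summary lists nearly equal read totals for both libraries. Peaks were joined to protein-coding genes of GENCODE M21 within 1 kb of any start, and letters were searched within 100 bp of the deposited summit in RefSeq GRCm38.p6, the assembly of mm10. Python 3.11.15, numpy 2.4.6, pandas 2.3.3, pysam 0.24.0 and samtools 1.23.1 were used, and the code was tested on simulated data. Named genes were the 8 highest promoter peaks and the 8 highest other peaks of each class (for both lists, by the lower of the 2 percentiles), the genes with most peaks, the leading members of each gene list, 16 genes the study named, and Ets1, Ucp1, Adipoq, Pparg and Prdm16. Members and gene lists were chosen with earlier results of these data known. Of 1411 list entries, 1406 matched. Alternatives covered overlap, q-value, promoter size, equal numbers and letters. A few items that the naming rule selects are not reported here.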

Additional observations from a re-analysis of the deposited data

How the results depend on the processing

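Against 88.0% of CS and 55.9% of RT peaks unshared, a q-value of 0.001 gave 85.9% and 50.3%, equal numbers 72.8% and 72.2%, an overlap of 50% of both peaks 92.6% and 73.0%, and a peak of the other list within 1 kb 86.7% and 52.8%. The next alternatives were chosen after seeing the data. Only peaks in Flox ATAC gave 89.5% and 14.9%, and without mostly masked peaks CS gave 91.3%, and 41.6% of its strongest 10% shared in place of 48.1%. The promoter share of CS peaks (46.7%) became 74.7% at equal numbers, 44.0% with 500 bp, 51.1% with 3 kb, 60.002% at a q-value of 0.001 and 54.5% without mostly masked peaks. For RT (20.1%) it became 18.7% with 500 bp, 24.5% with 3 kb, 23.0% at 0.001 and 30.7% without mostly masked peaks. The Flox ATAC share of CS peaks (53.4%) became 51.0% with EAKO ATAC, 82.6% at equal numbers, 67.8% at 0.001 and 61.5% without mostly masked peaks, and that of RT (24.3%) 28.5% at 0.001 and 34.8% without mostly masked peaks. CS-only genes numbered 2802 in place of 6381 at equal numbers, and RT-only genes 201 in place of 94, or 157 with 3 kb. The ETS share of CS summits (2.23%) became 1.09% within 50 bp, 5.73% with 7 letters, 3.94% at equal numbers and 4.40% at promoters, and that of RT (0.444%) 0.0986%, 1.53% and, at promoters, 1.71%. The CS share was above the RT share for promoters, Flox ATAC and ETS letters under each alternative run. The other 19 such values stayed within their interval or 1.5 times the count. No paired analysis was possible because each group is 1 library. Animal, library preparation and condition cannot be told apart, and absence from a list is not absence of binding.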
